A study of Gallus gallus with 4 samples.

Results

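Wide peaks of acetylated histone H3 lysine 27 (H3K27ac) that carried neither of the other profiled marks and lay outside dense H3K27ac domains were examined in otic-epibranchial progenitors (OEPs), the ectoderm that gives rise to the inner ear and the epibranchial ganglia. The rule kept peaks on numbered chromosomes with a width of 2 kb or more and no base of overlap with a peak of trimethylated lysine 4 (H3K4me3) or trimethylated lysine 27 (H3K27me3). It also asked that the peak lie in a sparse domain, meaning that joining all H3K27ac peaks across gaps of up to 12.5 kb gave a domain of fewer than 10 peaks. This left 1786 of the 45426 H3K27ac peaks, or 3.93%. The peaks were thus chosen by their measured width, their overlap with the other marks and the number of peaks in their domain, and these values are given below as descriptions.

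All libraries came from untreated chick embryos of 8 to 9 somites, kept in the egg, and each library was made from about 200 hand-dissected pieces of this ectoderm. The series holds 1 library each for H3K27ac, H3K4me3 and H3K27me3 and an input library without antibody, for which no peak list was analysed. Each library pools tissue of many embryos, so that cells in different states cannot be told apart, and the tissue was not checked against marker genes because gene annotation of the same build was not used. The lists hold no read counts and the sequencing depth is therefore unknown. With 1 library per mark the spread between embryos or immunoprecipitations is not measured, no difference below was tested, and the 95% intervals of shares (exact Clopper-Pearson) reflect counting error alone, with each peak taken as independent.

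H3K27ac is laid down by the acetyltransferases p300 and CBP on nucleosomes that flank active enhancers and active promoters. H3K4me3 is concentrated at the start sites of active or poised genes, while H3K27me3 is deposited by Polycomb repressive complexes and cannot share a lysine with acetylation. H3K27ac without H3K4me3 is the pattern commonly used to find active enhancers away from promoters, and clusters of such peaks over long distances have been called super-enhancers. The study profiled the marks together with chromatin accessibility (ATAC-seq) to find regulatory regions of the early ear. Its putative enhancers were accessible regions that overlapped H3K27ac but not H3K27me3, outside promoters and exons. Accessibility was not used here. The peaks described here were broad stretches of acetylation outside dense domains, as defined by the number of H3K27ac peaks alone. Most of them, 1587 of 1786, still shared a sparse domain with other H3K27ac peaks. Domains were not ranked by signal, so whether the peaks lay in super-enhancers was not tested.

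The rule narrowed the list mainly through width. Of the 43416 H3K27ac peaks on numbered chromosomes, 5093 reached 2 kb. Of these wide peaks, 3384 had no H3K4me3 and 3182 had neither mark, a share of 62.5% (interval 61.1 to 63.8), against 73.3% of H3K27ac peaks of all widths on these chromosomes. Sparse domains held 1786 of the 3182 (56.1%, 54.4 to 57.9) and dense domains of 10 or more peaks the other 1396. The third quartile of the number of peaks per domain was 9, both for H3K27ac-only peaks of all widths and for all H3K27ac peaks on these chromosomes. A larger share of both sets thus lay in sparse domains than of the wide H3K27ac-only peaks. The 1786 peaks made up 11% of all bases under H3K27ac peaks, 5.28 Mb of 47.8 Mb, from 3.93% of the peaks.

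Most of the peaks were only somewhat wider than the limit. The median width was 2584 bp, with quartiles of 2216 and 3288 bp, and the 90th percentile was 4284 bp. The widest measured 9769 bp, while H3K27ac peaks of all kinds on numbered chromosomes reached 21843 bp. The share of H3K27ac peaks that met the rule was lower at greater width. It was 41.9% (39.7 to 44.2) between 2 and 2.5 kb, 30.5% (27.8 to 33.3) between 3 and 4 kb, 19.8% (15.7 to 24.4) between 5 and 7 kb and 15.4% (10.2 to 21.9) between 7 and 10 kb. A wider peak has more bases that can overlap another mark under the rule. How much of the fall this accounts for was not tested. Between 2 and 2.5 kb, 1280 of 1912 peaks had neither other mark, and 478 of the 1280 lay in dense domains. Between 7 and 10 kb, 75 of 162 had neither, and 50 of the 75 lay in dense domains. At 10 kb and above there were 46 H3K27ac peaks, of which 0 met the rule, which allows a share of up to 6.52% by the limit of 3 counts and 7.71% by the exact Clopper-Pearson limit. Of those 46 peaks, 22 had neither other mark, and all 22 lay in dense domains.

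Enrichment was modest, with a median between those of narrower H3K27ac-only peaks of sparse domains and wide ones of dense domains. The fold enrichment, the authors' ratio of signal over local background which MACS2 averages across a broad peak, had a median of 2.77 (quartiles 2.55 and 3.08) and ran between 1.75 and 5.45. The median was 2.82 for wide H3K27ac-only peaks of dense domains, 2.61 for narrower H3K27ac-only peaks of sparse domains and 3.0 for wide peaks of sparse domains that overlapped H3K4me3 but not H3K27me3. Values of 4 or more were reached by 42 of the 1786 peaks (2.35%, 1.70 to 3.17). The background was 2.98% of all H3K27ac peaks on numbered chromosomes, and the share was 8.81% for the wide peaks with H3K4me3. Among all H3K27ac-only peaks on numbered chromosomes it was 1.93%. For wide ones of dense domains it was 2.22%, and for narrower ones of sparse domains 1.90%. At this limit, the interval of the 1786 peaks holds all of these shares of H3K27ac-only peaks. Values of 3 or more were reached by 30.8% (28.7 to 33.0), against 24.9% of all H3K27ac peaks on numbered chromosomes and 21.1% of H3K27ac-only ones. The share was 34.4% for wide H3K27ac-only peaks of dense domains, 19.8% for narrower ones of sparse domains and 50.1% for the wide peaks with H3K4me3. The interval of the 1786 peaks holds none of these. A q-value of 0.01 or less was reached by 74.2% (72.1 to 76.2), against 54.0% of all H3K27ac peaks on numbered chromosomes, 81.2% of wide H3K27ac-only peaks of dense domains, 85.7% of wide peaks with H3K4me3 and 45.2% of narrower H3K27ac-only peaks of sparse domains. Within the 1786 peaks, width and fold enrichment were weakly related (Pearson r = 0.15, Spearman rho = 0.17, across peaks of 1 library that share their caller and depth). The median fold enrichment was 2.71 between 2 and 2.5 kb, 2.87 between 4 and 5 kb and 3.08 between 7 and 10 kb.

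**Figure D1:**
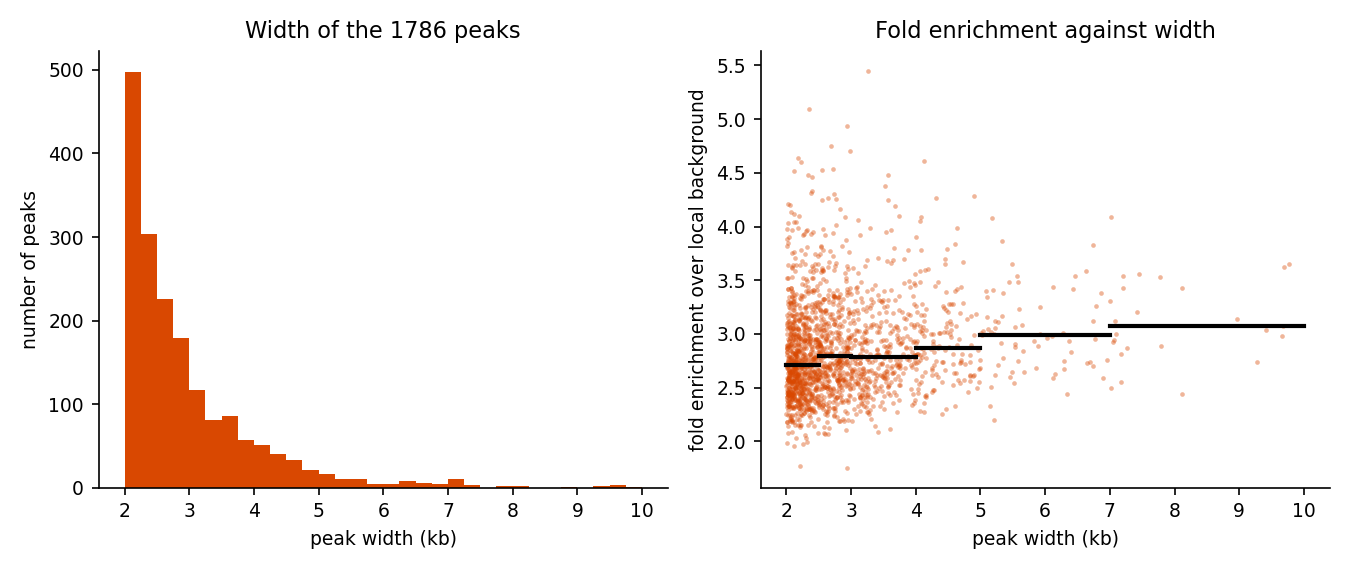
Left, histogram of the width in kb of the 1786 wide H3K27ac-only peaks of sparse domains. Right, fold enrichment over local background against width, 1 point per peak, with black bars at the median of each width class. The medians run from 2.71 in the narrowest class to 3.08 in the widest, while points of the narrowest class span most of the range.

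The limits of the rule ran through a continuous range of peaks. The 3 narrowest peaks that met the rule, on chromosomes 33, 2 and 6, each measured 2001 bp, with fold enrichments of 2.71, 2.51 and 2.25. The 3 widest that missed it on width alone, a pair on chromosome 9 and 1 on chromosome 10, each measured 1999 bp, with fold enrichments of 2.35, 2.41 and 2.35. The peak closest to H3K4me3 lay 2 bp from it (chr5:53472238-53474605, 2368 bp), and the closest to H3K27me3 lay 7 bp from it (chr3:79033965-79038202, 4238 bp). Another 1204 wide peaks of sparse domains were kept out because they overlapped a mark, 18 of them by less than 100 bp and 1 by a single base (chr5:50079090-50081570). At the limit of domain size, the 158 peaks in domains of 9 measured 2543 bp at the median, with a fold enrichment of 2.76, and the 115 wide H3K27ac-only peaks in domains of 10, just outside the rule, had 2834 bp and 2.81.

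The widest peaks are described singly, with 1-based coordinates on GalGal6. The widest lay at chr11:16739509-16749277 and formed a domain by itself. Its fold enrichment was 3.65, and H3K27ac, H3K4me3 and H3K27me3 were each absent for 10.2 kb or more on both sides, with the nearest other H3K27ac peak at 12.7 kb. The second, at chr17:1672416-1682115 (9700 bp, fold enrichment 3.62), held 9.70 kb of a domain of 6 peaks and 28.5 kb, with H3K4me3 at 16.3 kb and H3K27me3 at 44.3 kb. At chr5:16120246-16129920 (9675 bp, 3.08), the nearest H3K4me3 peak was 5.68 kb away and itself acetylated, while H3K27me3 was 117.3 kb away. These 3 differed in their distance to other peaks, with the nearest of any list at 10.2, 1.08 and 2.80 kb.

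Surroundings also varied among the next widest. At chr12:9623147-9632808 (9662 bp, 2.98), the nearest H3K4me3 peak, 4.78 kb away, carried H3K27me3, the only such case among the 10 widest. The peaks at chr15:8846911-8856324 (9414 bp, 3.04) and at chr7:2359720-2368996 (9277 bp, 2.73) each shared a domain with 1 other H3K27ac peak, and both peaks together covered 86.1% and 85.4% of these domains, more than H3K27ac covered in any other shared domain of the 10. The remaining 4 were at chr8:7873152-7882115 (8964 bp), chr7:36283464-36291580 (8117 bp), chr2:40290568-40298678 (8111 bp) and chr9:18148769-18156557 (7789 bp), in domains of 5 to 9 peaks. That on chromosome 7 had a fold enrichment of 2.44, the lowest of the 10. Among all H3K27ac peaks on numbered chromosomes, the 10 had ranks of 49 to 134 by width.

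**Figure D2:**
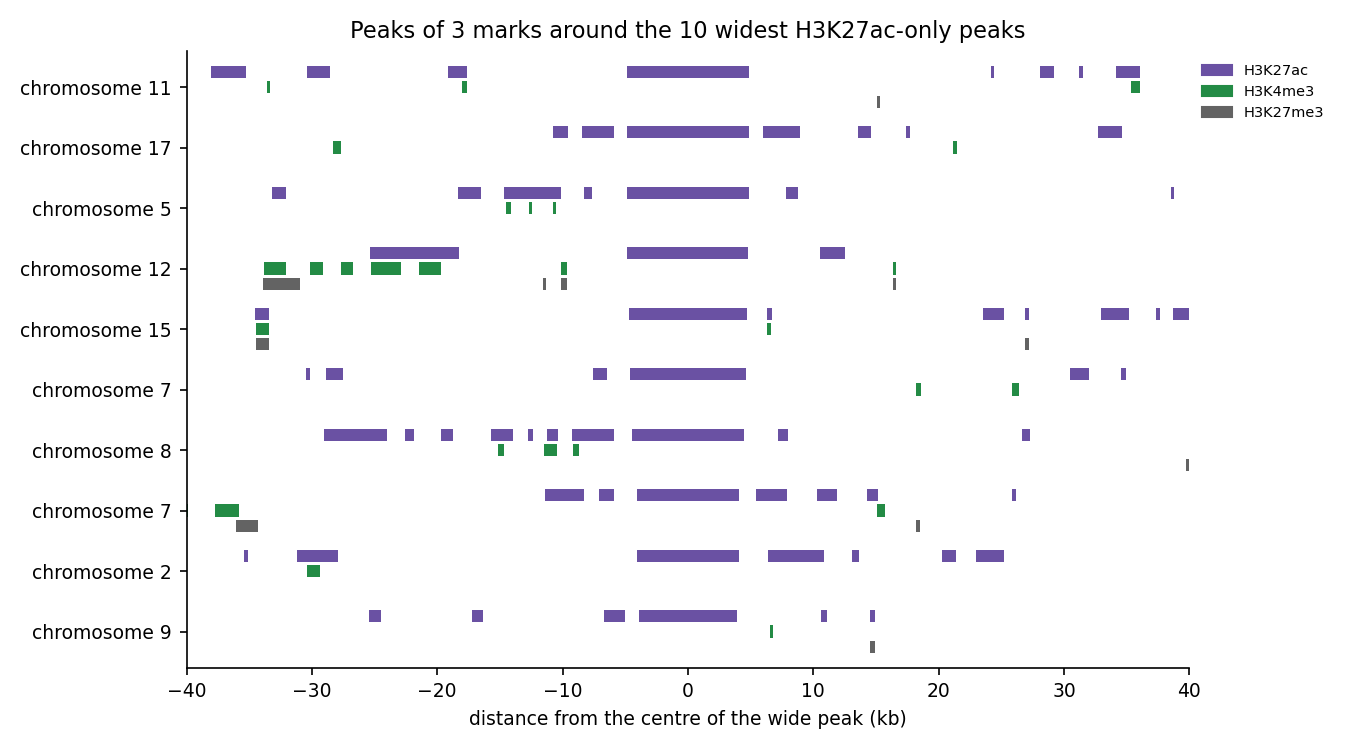
Peaks of H3K27ac (purple), H3K4me3 (green) and H3K27me3 (grey) within 40 kb of the centre of each of the 10 widest H3K27ac-only peaks of sparse domains, in order of width from the top, with the x axis in kb from the centre. No green or grey bar touches the central peak, between 1 and 7 H3K4me3 peaks lie in each window, and 4 of the 10 windows hold no H3K27me3 peak.

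The peaks of the highest fold enrichment were other peaks than the widest. The highest value, 5.45, was found at chr1:48749272-48752527 (3256 bp, −log10 q-value 13.9), with H3K27me3 at 4.49 kb and H3K4me3 at 47.1 kb. Next came chr1:75039081-75041429 (5.09, 2349 bp), chr20:5816766-5819700 (4.93, 2935 bp), chr4:60882004-60884697 (4.75, 2694 bp) and chr1:137530596-137533579 (4.70, 2984 bp). The peak on chromosome 20 had acetylated H3K4me3 at 1.90 kb and its nearest H3K27me3 at 192.0 kb. Ranks 6 to 10 were chr15:2421531-2423708, chr1:146093004-146097128, chr6:21402161-21404378, chr12:15719906-15722628 and chr4:51645414-51647968, with fold enrichments between 4.52 and 4.64. Their distances to H3K4me3 ran between 1.27 kb (chromosome 1) and 43.4 kb (chromosome 15), so that high enrichment was seen both near to and far from this mark. Over all 1786 peaks, the rank correlation of fold enrichment with the distance to H3K4me3 was 0.03 and with that to H3K27me3 -0.0026, as descriptions across peaks of 1 library.

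To see how the peaks sit among other H3K27ac, their stitched domains were described. A peak was alone in its domain in 199 cases (11.1%, 9.72 to 12.7), against a background of 19.9% of all H3K27ac peaks on numbered chromosomes and 25.3% of narrower H3K27ac-only peaks of sparse domains. This share depended on how domains were drawn, and was 22.1% with stitching at 5 kb, 20.2% with q-values of 0.01 or less and 6.25% with no limit on peaks per domain. The other 1587 shared a domain with 1 to 8 H3K27ac peaks. The nearest other H3K27ac peak lay at a median of 2.65 kb (quartiles 1.48 and 6.04), against 1.62 kb for wide H3K27ac-only peaks of dense domains and 5.20 kb for narrower H3K27ac-only peaks of sparse domains. No gap between H3K27ac peaks was under 1006 bp in any of these classes. The 1786 peaks lay in 1501 domains, of which 1259 held 1 of them, 202 held 2, 37 held 3 and 3 held 4. Larger domains held one more often, except that domains of 8 peaks (47.1%) did so less often than those of 7 (51.9%). Of the domains of a single peak, 2.31% did so, of those of 5 peaks 29.3% and of those of 9 peaks 67.1%. Per H3K27ac peak the share was 2.31% in domains of 1, 6.97% in domains of 5 and 11.8% in domains of 9.

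The width of a peak relative to its domain follows in part from the rule, which asked for 2 kb, and is given as a description. The wide peak was the widest H3K27ac peak of its domain in 1164 of 1587 cases (73.3%, 71.1 to 75.5). The 1587 peaks lay in 1302 domains. Some of these held several wide peaks, which cannot all be the widest of their domain. Counted by domain, a wide peak was the widest in 1164 of 1302. The share of 73.3% thus does not mean that another kind of peak was wider in all other cases. Its interval takes wide peaks of the same domain as independent. A wide peak held a median of 41.4% of the acetylated bases of its domain (quartiles 28.3 and 59.4). The 4688 other peaks of these domains had a median width of 788 bp, and their median fold enrichment was 2.65. A wide peak exceeded the median fold enrichment of these neighbours in 929 of 1578 cases (58.9%, 56.4 to 61.3), by a median difference of 0.10 over all cases. Of the neighbours, 21.7% (20.5 to 22.9) overlapped H3K4me3 and 7.19% (6.47 to 7.97) overlapped H3K27me3, against 20.9% and 9.06% of all H3K27ac peaks in domains of 2 to 9. The latter set includes the wide peaks themselves, which overlap neither mark by the rule and so lower both of its shares. The sets are therefore not alike, and no direction is read from the comparison. An H3K27ac peak with H3K4me3 was present in 676 of the 1302 shared domains that held a wide peak (51.9%, 49.2 to 54.7), against 50.7% (49.4 to 51.9) of the 5974 domains of 2 to 9 peaks without one. Those intervals overlap. No H3K27ac peak overlapped either other mark in 537 of the 1302 (41.2%, 38.6 to 44.0), against 39.5% (38.2 to 40.7) of the 5974, and these intervals overlap as well. The domains were not matched by number of peaks, and larger domains held a wide peak more often. Domains with a wide peak also hold, by the rule, a peak free of both marks. Likeness at equal domain size is therefore not shown by these shares.

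**Figure D3:**
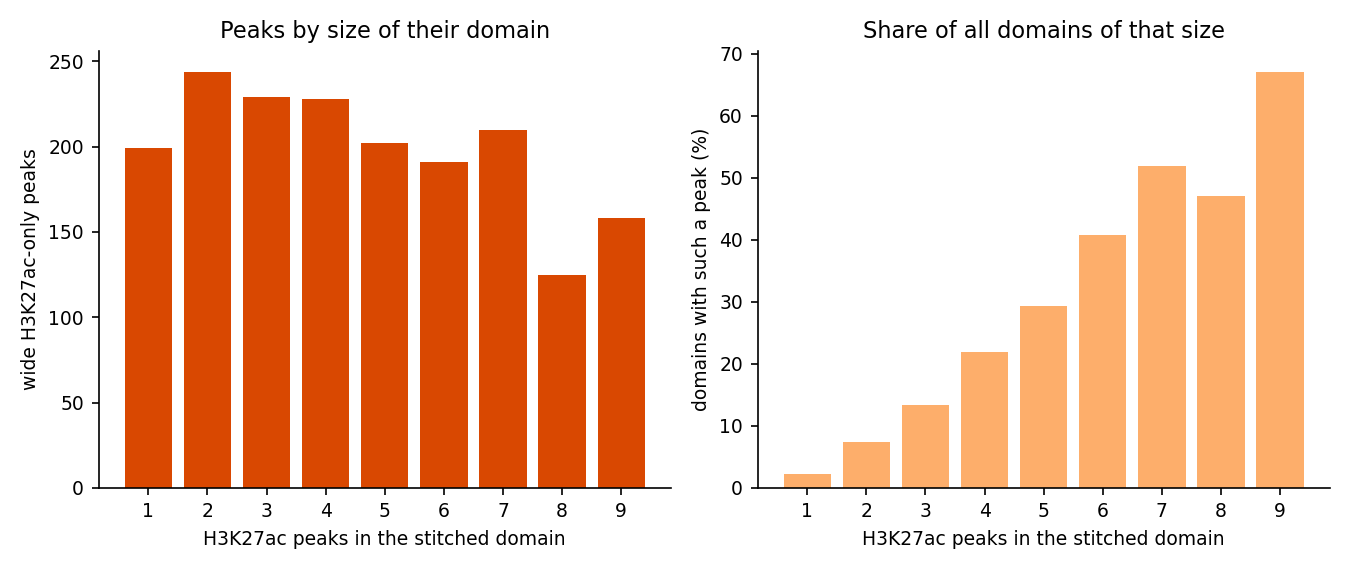
Left, number of wide H3K27ac-only peaks by the number of H3K27ac peaks in their stitched domain. Right, share in percent of all stitched domains of that size on numbered chromosomes that hold at least 1 such peak. Counts stay between 125 and 244 at every domain size, while the share is 2.31% for domains of 1 peak and 67.1% for domains of 9.

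Distances to H3K4me3 and H3K27me3 were then measured from edge to edge. The nearest H3K4me3 peak lay at a median of 11.4 kb (quartiles 4.68 and 22.7), against 9.09 kb for wide H3K27ac-only peaks of dense domains and 12.2 kb for narrower H3K27ac-only peaks of sparse domains. It was within 10 kb for 813 peaks (45.5%, 43.2 to 47.9), against a background of 57.3% of all H3K27ac peaks on numbered chromosomes, many of which overlap H3K4me3, and 45.8% of those with neither mark. The share was thus close to that of H3K27ac-only peaks in general, and below the 53.9% (51.2 to 56.5) of wide ones in dense domains. H3K27me3 lay farther away, at a median of 25.1 kb (quartiles 12.0 and 47.6), against 29.5 kb in dense domains and 22.3 kb for narrower peaks. It was within 10 kb for 379 peaks (21.2%, 19.3 to 23.2), against a background of 31.8% of all H3K27ac peaks and 24.8% (24.3 to 25.3) of H3K27ac-only peaks. Both distances depended on the threshold of the lists. When the q-value was limited to 0.01 in each list, 2679 peaks met the rule and the medians were 22.9 kb to H3K4me3 and 58.4 kb to H3K27me3.

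The shares of peaks remote from both marks were close to those of all 31816 H3K27ac-only peaks of numbered chromosomes. Neither mark was found within 5 kb of 1205 peaks (67.5%, 65.2 to 69.6), against 66.5% of H3K27ac-only peaks, within 25 kb of 212 (11.9%), against 11.9%, and within 50 kb of 27 (1.51%), against 1.54%. Both marks were found within 5 kb of 69 peaks (3.86%), against 4.50%. H3K4me3 stood on both sides within 10 kb of 121 peaks (6.77%, 5.65 to 8.04) and within 25 kb of 518 (29.0%, 26.9 to 31.2), against 7.55% and 29.7% of H3K27ac-only peaks. H3K27me3 stood on both sides within 10 kb of 33 (1.85%, 1.28 to 2.59) and within 25 kb of 178 (9.97%, 8.62 to 11.5), against 2.40% and 10.9%. The intervals of all 4 shares hold the share of H3K27ac-only peaks. The nearest peak of any list was H3K27ac for 1356 peaks (75.9%), H3K4me3 for 295 (16.5%) and H3K27me3 for 135 (7.56%). The same shares were not computed for other H3K27ac peaks, so they are not shown to be particular to the wide ones. H3K27ac peaks covered 4.80% of the numbered chromosomes, H3K4me3 peaks 1.69% and H3K27me3 peaks 1.69%. The most remote wide peak was at chr3:51994025-51996056 (2032 bp, fold enrichment 2.59), with no other peak of the 3 lists within 55.3 kb. The next were at chr1:133110046-133112069 (47.5 kb), chr3:9101070-9103195 (30.5 kb), chr7:22504080-22506285 (29.6 kb) and chr1:83864137-83866547 (28.7 kb). All 5 were under 2.5 kb wide, with fold enrichments between 2.34 and 3.23.

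The nearest H3K4me3 peak was most often an acetylated one. It overlapped H3K27ac without H3K27me3 for 832 of the 1786 peaks (46.6%, 44.3 to 48.9), H3K27me3 alone for 95 (5.32%), both marks for 95 (5.32%) and neither for 764 (42.8%). Among all H3K4me3 peaks of numbered chromosomes the corresponding shares were 30.4%, 14.3%, 6.14% and 49.1%. Other H3K27ac-only peaks differed in the same measure, as the nearest H3K4me3 peak was acetylated without H3K27me3 for 69.2% (66.7 to 71.6) of the wide ones in dense domains and for 34.1% (33.5 to 34.8) of the narrower ones in sparse domains. The wide peaks of sparse domains stood between these classes. The rule split dense from sparse domains by their number of H3K27ac peaks, so these classes differ in nearby H3K27ac by construction. What this adds to the higher share in dense domains was not tested. H3K4me3 together with H3K27me3 is known as a bivalent state of poised promoters, and H3K4me3 with H3K27me3 alone was the nearest in 5.32% of cases here, against 1.65% (1.05 to 2.46) in dense domains and 8.07% (7.72 to 8.44) for narrower peaks. The acetylated H3K4me3 peaks nearest to wide peaks of sparse domains had a median width of 554 bp and those with neither mark 399.5 bp.

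The cover of the flanks, the percentage of bases under peaks at a given distance from the edge of a peak, placed the wide peaks of sparse domains between the same classes at 2 to 5 kb. H3K27ac covered 14.2% of bases at 2 to 5 kb, 11.3% at 5 to 10 kb and 7.94% at 40 to 60 kb from the wide peaks of sparse domains, against 4.80% of the numbered chromosomes. In dense domains it covered 30.7% at 2 to 5 kb, and beside narrower peaks 7.91%. That it was higher in dense domains follows from the rule, which split domains by their number of H3K27ac peaks. The first kb was empty by the way the caller joins peaks. H3K4me3 covered 2.35% at 2 to 5 kb, 1.39 times its cover of the numbered chromosomes (1.69%), and stayed at 1.24 to 1.27 times in all bands between 5 and 60 kb. H3K27me3 was below its cover of the numbered chromosomes (1.69%) in all bands. It covered 0.79% at 2 to 5 kb, 0.466 times that value, 1.17% at 10 to 20 kb (0.692 times) and 1.45% at 40 to 60 kb (0.857 times). At 2 to 5 kb it was 0.72% in dense domains and 0.99% beside narrower peaks. Low cover within the first 2 kb follows in part from the rule, which barred overlap. A barred peak can also extend past 2 kb, so farther bands are not free of the rule, and how far this reaches was not tested. Both other classes bar overlap as well, so none shows the cover without this step.

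**Figure D4:**
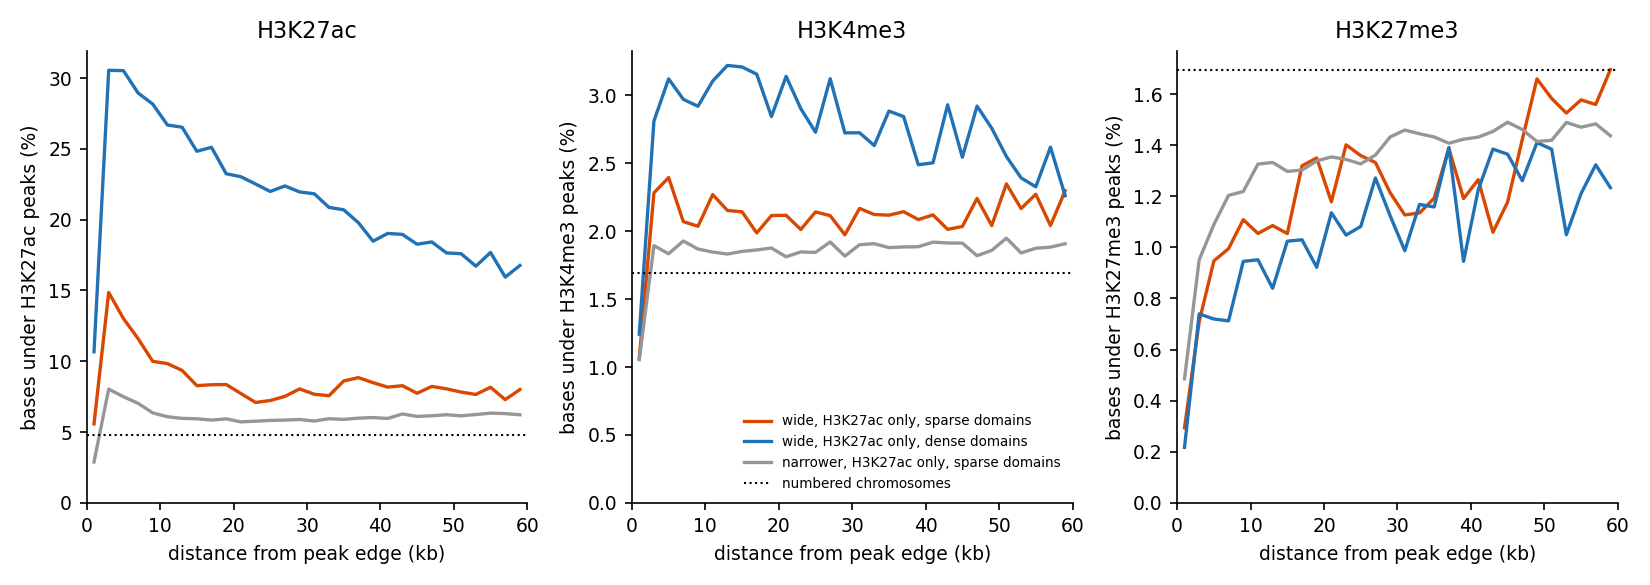
Percentage of bases under H3K27ac, H3K4me3 and H3K27me3 peaks against distance in kb from the edge of H3K27ac-only peaks, in steps of 2 kb over both sides, for wide peaks of sparse domains (orange), wide peaks of dense domains (blue) and narrower peaks of sparse domains (grey), with the cover of the numbered chromosomes dotted. Orange lies between blue and grey for H3K27ac and over most distances for H3K4me3. For H3K27me3 orange is 0.71% at 2 to 4 kb and 0.95% at 4 to 6 kb, below the dotted 1.69%, and it reaches the dotted line at 58 to 60 kb (1.70%).

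All 32 numbered chromosomes with H3K27ac peaks held at least 1 of the peaks. In the chicken, small chromosomes are dense in genes, and density was therefore compared by size, with the span taken as the largest peak end in the 3 lists. There were 3.08 per Mb on the 20 chromosomes under 20 Mb, 2.34 on the 7 of 20 to 50 Mb and 1.39 on the 5 of 50 Mb or more. The ratio of small to large was 2.21, and for all H3K27ac peaks it was 1.98. Relative to all H3K27ac peaks, the shares were alike at 4.33% (3.96 to 4.72), 4.39% (4.0 to 4.81) and 3.87% (3.62 to 4.14), in the same order of size. Relative to wide H3K27ac peaks they were 26.5% (24.6 to 28.6), 36.0% (33.3 to 38.8) and 42.5% (40.3 to 44.7), so that on small chromosomes more of the wide peaks were removed by the later steps of the rule. Chromosomes 24 and 15 had the most, with 5.24 and 4.83 per Mb, and chromosomes 16 and 31 the fewest, with 0.35 and 0.65 per Mb from 1 and 4 peaks. The median width was 2581, 2552 and 2608 bp and the median fold enrichment 2.73, 2.75 and 2.81, and peaks alone in their domain made up 6.04%, 9.28% and 15.1%. With no limit on peaks per domain, the ratio of small to large was 3.66, against 2.21 with it. The domain limit thus removed a larger share of wide H3K27ac-only peaks on small chromosomes. Wide H3K27ac peaks with or without the other marks numbered 1872 on the 161.5 Mb of small chromosomes and 1994 on the 609.2 Mb of large ones. Their ratio per Mb is below 3.66, so the other marks did not remove a larger share on small chromosomes.

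**Figure D5:**
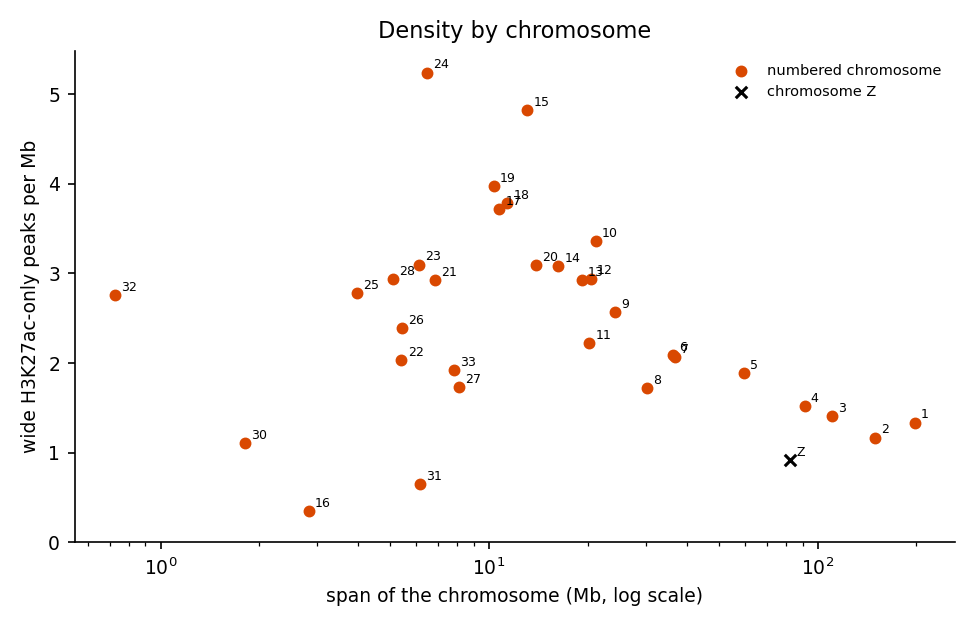
Wide H3K27ac-only peaks of sparse domains per Mb against the span of each numbered chromosome in Mb on a log axis, with chromosome Z, which the rule leaves out, as a cross. Chromosomes 24 and 15 are highest at 5.24 and 4.83 per Mb, the 5 of 50 Mb or more lie between 1.17 and 1.89, and chromosomes 16 and 31 lie below 1.

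The spacing of the peaks along the chromosomes was also measured. The gap between neighbouring ones had a median of 191.7 kb (quartiles 47.0 and 553.7) over 1754 pairs, and 36.2% (34.0 to 38.5) of gaps were 100 kb or less. Joined across such gaps, 745 stood alone and the others formed runs of 2 to 8. Gaps and runs were not computed for other H3K27ac peaks, so they are not shown to be particular to the wide ones. The longest run by number lay at chr3:65907639-66122135, where 8 wide peaks in 4 domains spread over 214.5 kb, among 26 H3K27ac, 4 H3K4me3 and 0 H3K27me3 peaks. Another 5 runs had 6 each, and the 4 of smallest extent are described. At chr15:2379765-2564440 the run held 10 H3K27me3 and 2 H3K4me3 peaks and a wide peak of fold enrichment 4.64, while those at chr11:18967504-19169095 and chr10:3398910-3633430 each held 1 H3K27me3 peak, with 7 and 12 H3K4me3 peaks. The last, at chr1:50605591-50876782, had 11 H3K4me3 and 8 H3K27me3 peaks. Runs alike in number thus differed in the marks between their members.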

How the data were processed

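Per the labels and the study's methods, the authors trimmed reads with Trim Galore, aligned them to GalGal6 with BWA and ran MACS2 in broad mode with a q-value limit of 0.1, giving 1 peak list for each antibody. Use of the input library as control is not stated. The deposited lists give fold enrichment as a linear ratio, p-values and q-values on a −log10 scale, and a score that was not used. They hold no depth.

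Overlap was counted from 1 bp, H3K27ac peaks were stitched across gaps of up to 12.5 kb, and distances ran between edges. Medians and shares were computed with Python 3.11.15, numpy 2.4.6, pandas 2.3.3 and scipy 1.17.1, and the rule was tested on simulated lists. Comparison classes were wide H3K27ac-only peaks of dense domains, H3K27ac-only peaks under 2 kb of sparse domains, and wide peaks of sparse domains with H3K4me3 but not H3K27me3. Sites named are the 10 widest, the 10 of highest fold enrichment, the 5 most remote, the 5 largest runs and those at the limits. The peaks, classes and lists were chosen with earlier results of these data known, and the comparisons of flanks, neighbours and H3K4me3 states after the lists had been seen. No genome or annotation of GalGal6 was used here, so genes, sequences, motifs and the planned gene lists are not reported.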

Additional observations from a re-analysis of the deposited data

How the results depend on the processing

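Of 90 values (9 results under 10 alternatives), 47 stayed within the 95% interval of the value reported, or within 1.5 times for the number of peaks, and 43 moved. All alternatives were planned but 1 peak per domain, added after the data were seen. A smaller or larger set follows from the construction of each rule, and otherwise the cause was not tested. The density ratio of small to large chromosomes, the 1 result with a direction, stayed above 1 under all 10 alternatives, between 1.65 and 3.66. All H3K27ac peaks already had a ratio of 1.98, so a value above 1 is not particular to these peaks. Fewer than 5 peaks per domain (1.65) and a width of 1.5 kb (1.92) fell below 1.98, and the other alternatives lay above it. The use of all sequences could not change the ratio, which counts numbered chromosomes only. No paired analysis was possible because each mark has 1 library.

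When the q-value was limited to 0.01 in each list, 2679 peaks met the rule, 1325 of them among the 1786, with a median width of 2856 bp, a fold enrichment of 2.94, 20.2% alone in their domain, median distances of 3.56 kb to H3K27ac, 22.9 kb to H3K4me3 and 58.4 kb to H3K27me3, 25.4% with H3K4me3 within 10 kb and a density ratio of small to large chromosomes of 3.10. Stitching at 5 kb gave 2895 peaks, 2669 bp, 22.1% alone, 2.17 kb to H3K27ac, 10.75 kb to H3K4me3, 48.0% with H3K4me3 within 10 kb and a ratio of 3.42. Fewer than 5 peaks per domain gave 900 peaks, 22.1% alone, 4.28 kb to H3K27ac, 13.7 kb to H3K4me3, 39.7% within 10 kb and a ratio of 1.65. With no limit there were 3182 peaks, 2701.5 bp wide, 6.25% alone, 2.03 kb from H3K27ac, 10.3 kb from H3K4me3, 26.9 kb from H3K27me3, 49.2% within 10 kb and a ratio of 3.66. A width of 1.5 kb gave 3333 peaks, 2050 bp, a fold enrichment of 2.73, 12.9% alone, 3.075 kb to H3K27ac and a ratio of 1.92, and a width of 3 kb gave 579 peaks, 3785 bp, 2.85, 7.94% alone and 2.23 kb to H3K27ac. With 1 peak per domain, the median width was 2645 bp, 13.3% were alone and H3K27ac was 2.88 kb away. An overlap of 50% of the shorter peak, a distance of 1 kb from other marks and the use of all sequences moved none of the 9 results. The unknown depth limits every distance, since signal below the calling threshold counts here as absent.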

Other observations

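Wide H3K27ac-only peaks of sparse domains were also counted on the sex chromosomes, which the rule leaves out. Chromosome Z held 76, or 0.92 per Mb, below the 1.17 to 1.89 per Mb of the 5 numbered chromosomes of 50 Mb or more, and H3K27ac peaks of all kinds were also sparser on Z, at 23.4 per Mb. As a share of H3K27ac peaks on the chromosome they were 3.93% on Z, within the 3.50% to 4.10% of those 5 chromosomes. Their values were close to those of numbered chromosomes, with a median width of 2494 bp, a median fold enrichment of 2.87, a median distance of 10.8 kb to H3K4me3 and 24.98 kb to H3K27me3, and H3K4me3 within 10 kb of 47.4% (35.8 to 59.2). Chromosome W held 1 and unplaced sequences 0. Of 1754 gaps between neighbouring wide peaks on numbered chromosomes, 52 (2.96%) were 2 kb or less, the smallest 1.02 kb, close to the smallest gap between any H3K27ac peaks.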
